A study of Drosophila melanogaster with 9 samples.

Results

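Heat shock proteins and their co-chaperones were followed in RNA sequencing libraries of adult Drosophila melanogaster in which the ubiquitin ligase gene Dube3a was overexpressed in glia or in neurons. The members are the genes whose symbol starts with Hsp, Hsc, DnaJ or CCT in the pattern of the chaperone families. All 36 such genes were found among 15438 entries of the count table, and 34 of them had enough counts to be tested. They comprise 6 small heat shock proteins, 7 inducible Hsp70 genes, 5 Hsp70 cognates, Hsp110, 1 Hsp90 gene (Hsp83), 4 Hsp60 genes, 8 subunits of the cytosolic chaperonin CCT and 4 J-domain co-chaperones.

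The control flies carried UAS-Dube3a (the Das45 transgene) with no driver. Their columns are labelled w_Das45, where those of the lines are labelled Repo_Das45 and C155_Das45. The labels do not explain the w, and any difference in strain background cannot be told apart from the driver. The glial line carried the same transgene with repo-GAL4, whose promoter is that of a glial gene, and the neuronal line carried it with elav-GAL4 (C155), whose promoter is that of a gene of neurons. Each genotype had 3 libraries, made from pools of 15 to 25 heads of flies kept at 25 degrees to an age given as 3 to 5 days. No library held a driver without the transgene, so the driver and Dube3a cannot be told apart, and the labels do not say whether replicates came from separate crosses. Every p-value therefore measures the spread between these samples, which may be technical.

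Chaperones bind unfolded or partly folded proteins. Small heat shock proteins hold them without using ATP, Hsp70 proteins refold them in ATP-driven cycles that J-domain proteins start and exchange factors such as Hsp110 reset, Hsp90 matures signalling proteins such as kinases and receptors, and the chaperonins Hsp60 (in mitochondria) and CCT (in the cytosol) fold proteins inside a closed barrel. Heat and misfolded protein activate the transcription factor Hsf, which induces the Hsp70 and small heat shock genes strongly, whereas the Hsp70 cognates and CCT subunits are made without stress. UBE3A, the human homologue of Dube3a, tags proteins with ubiquitin, and chaperones and the ubiquitin system share clients.

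Depth ranged from 35550949 to 60322417 counts per library, of which the members held 0.505% to 0.642%. Levels below are CPM, counts brought to a common library size after TMM scaling, which corrects for differences in RNA composition. Ube3a, the annotation's name for Dube3a, read 31.2, 33.8 and 39.8 CPM in the control, 217, 189 and 216 in the glial line and 72.9, 61.5 and 76.8 in the neuronal line. Both driver lines lay above the control, as their labels imply, and no groups overlapped. The labels do not say which line should be higher. The labels name brain, but the opsin gene ninaE and the other photoreceptor markers summed to 44455 to 65543 CPM, so eye RNA was present. Yolk protein genes (37689 to 151637 CPM) and digestive enzymes of the gut (2750 to 66411 CPM) were also high and varied widely between libraries of 1 genotype. The summed glial markers, 8 genes, lay at 2906 to 3490 CPM in the control, 1745 to 2689 in the glial line and 2663 to 3350 in the neuronal line, and the summed neuronal markers, also 8 genes, at 1647 to 1750, 1382 to 1702 and 1964 to 2277 CPM.

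Most of the members' counts belonged to a few constitutive genes. Per kilobase of exon, averaged over the 9 libraries, Hsc70-4, the main cytosolic Hsp70 cognate, stood first at 1189 CPM per kilobase. It was followed by Hsp60A, the mitochondrial chaperonin, at 222, by Hsp83 at 182 and by Hsc70-5, the mitochondrial Hsp70, at 137 CPM per kilobase. CCT subunits spread from 17.2 (CCT3) to 65.6 (CCT4) CPM per kilobase. The small heat shock genes lay between 0.334 (Hsp27) and 13.4 (Hsp23), and the inducible Hsp70 genes between 0.920 (Hsp70Ba) and 3.64 (Hsp68) CPM per kilobase. Hsc70-4 alone made up 49.8% to 61.6% of the members' counts in a library, while the small class made up 0.566% to 1.14% and the inducible Hsp70 class 0.446% to 0.722%. Hsc70-4 is the sum of 7 transcript rows, and each inducible Hsp70 gene has 1 row. Whether a read was counted for several isoforms is not given in the sources used here. Such counting would raise the levels and shares of genes with more rows.

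**Figure D1:**
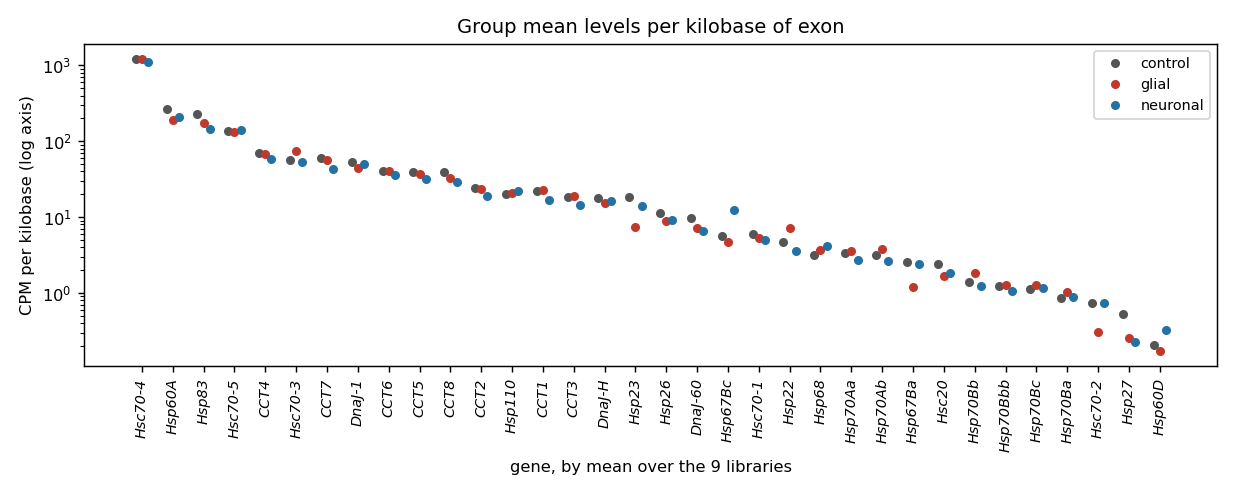
Group mean level per kilobase of exon (CPM per kilobase, log axis) of the 34 tested members, ordered by the mean over the 9 libraries, with grey for control, red for the glial line and blue for the neuronal line. Hsc70-4 is the highest at a mean of 1189, and Hsp23, Hsp67Bc, Hsp22, Hsp67Ba and Hsc70-2, whose points for 1 line stand apart, lie at 13.4 or below.

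Changes between genotypes were few. In the glial line against the control 0 members rose and 2 fell, Hsc70-2 and Hsp23, which is 5.88% of the 34 tested beside 4.28% of all 11455 genes tested (2.3% higher and 1.98% lower; edgeR quasi-likelihood test, Benjamini-Hochberg adjusted p under 0.05). At an unadjusted p under 0.05, 1 member was higher and 6 were lower, beside 20.0% of all genes in either direction. In the neuronal line against the control 0 members passed with edgeR, beside 0.655% of all genes. With the unadjusted p, 1 member was higher and 6 were lower there, beside 13.1% of all genes. DESeq2 called 4 of the 34 members there and 470 of all 11455 genes, where edgeR called 75 of all genes. Between the lines, Hsp22 was higher in the glial than in the neuronal line and Hsc70-2 and Hsp67Bc were lower, 8.82% of the members beside 3.77% of all genes (1.95% higher and 1.82% lower), and with the unadjusted p 6 members were higher and 4 lower beside 18.3% of all genes. The glial and control libraries did not overlap for 1 higher and 7 lower members, 23.5% of those tested beside 25.2% of all genes (10.9% higher and 14.2% lower). The neuronal and control libraries did not overlap for 1 higher and 6 lower members, 20.6% beside 21.2% of all genes (10.2% higher and 10.9% lower). The glial and neuronal libraries did not overlap for 6 higher and 4 lower members, 29.4% beside 22.8% of all genes (10.6% higher and 12.2% lower). Over both directions together, the shares without overlap lay near those of all genes in both comparisons with the control. By direction they did not, since 1 member was higher and 7 or 6 were lower, where all genes were split more evenly. Whether these splits, or the larger share between the lines, differ from those of all genes was not tested. The median log2 fold change over the members was -0.06 in glial against control, -0.27 in neuronal against control and 0.12 in glial against neuronal, where the median over all genes was -0.02, -0.01 and -0.00. The first and second comparisons share the 3 control libraries, so their values are not independent.

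**Figure D2:**
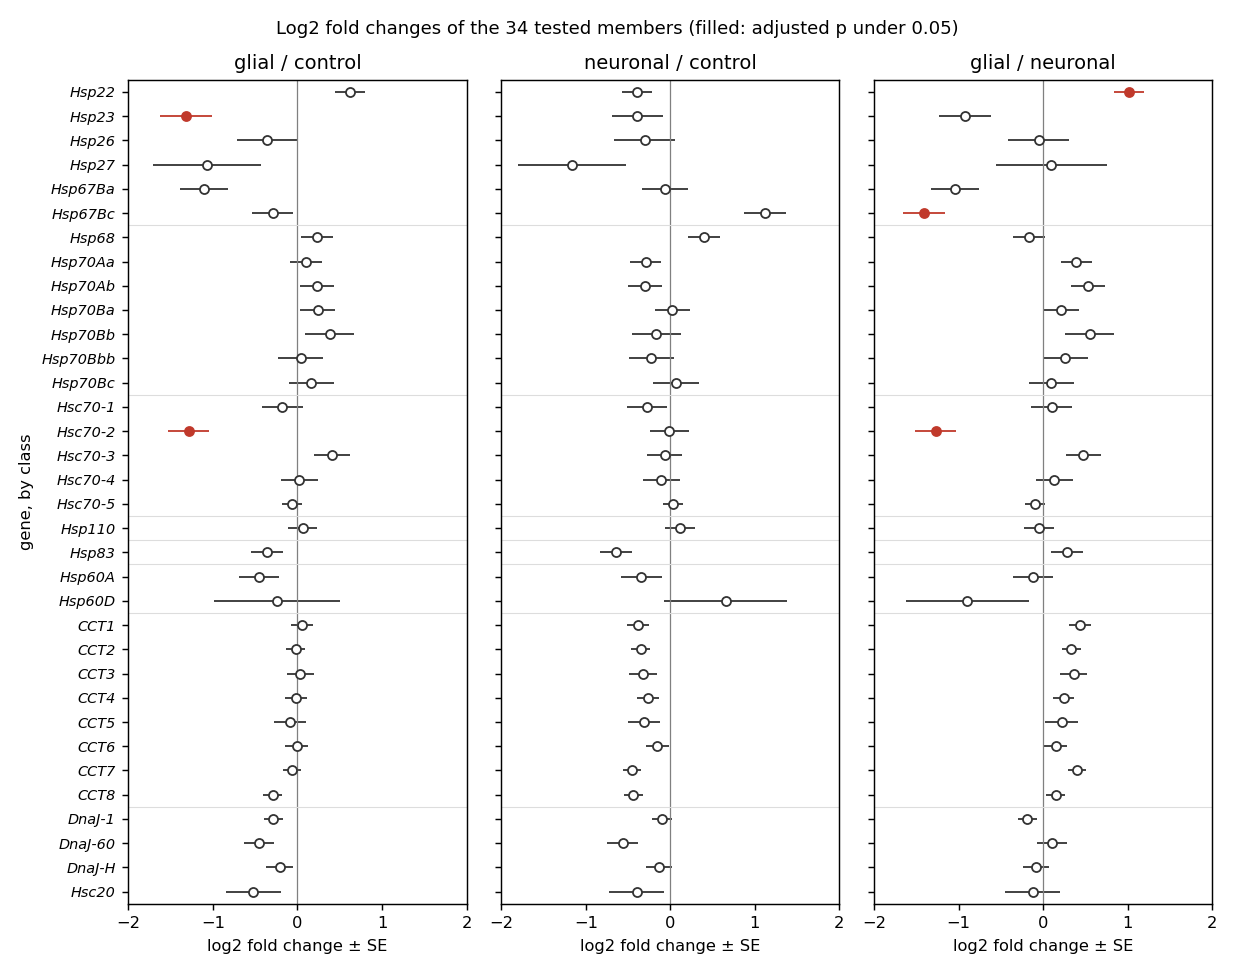
Log2 fold change ± SE of the 34 tested members in the 3 comparisons, grouped by class between the thin lines (small, inducible Hsp70, cognate Hsp70, Hsp110, Hsp90, Hsp60, CCT and J-domain from top to bottom). Filled red points passed an adjusted p of 0.05, 2 in glial against control, 0 in neuronal against control and 3 in glial against neuronal.

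The small heat shock proteins moved in different directions. Of the 6, 0 rose and 1 fell in glial against control, 16.7% beside 4.28% of all genes. In neuronal against control 0 passed, beside 0.655% of all genes. In glial against neuronal 1 was higher and 1 lower, 33.3% beside 3.77% of all genes. Hsp23, a cytosolic small heat shock protein, read 14.0, 15.1 and 20.2 CPM in the control, 7.10, 5.14 and 7.56 in the glial line and 17.96, 7.65 and 12.0 in the neuronal line. All 3 glial libraries lay below every other library, and the neuronal libraries spread widely, from below to within the control range. Hsp23 fell by 1.32 ± 0.31 on the log2 scale in the glial line, 2.49-fold (edgeR adjusted p = 0.047). Against the neuronal line the glial level was lower by a log2 fold change of -0.92 ± 0.30, which did not pass with edgeR (adjusted p = 0.14) and passed with DESeq2. The fall rests on all libraries of both groups, since the edgeR adjusted p was 0.0813 to 0.132 when any 1 control or glial library was left out and 0.0884 without neuronal library 3. It was 0.0941 with library totals in place of TMM and 0.0843 with a covariate for the mean level of the gut markers (the gut covariate). In bulk RNA fewer cells of a type and less RNA per cell cannot be told apart, and the summed glial markers were below the control in the same 3 libraries. Of the 8 markers 3 fell and 1 rose against the control, 50.0% beside 4.28% of all genes. The part of glial RNA in the fall of Hsp23 was not tested.

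Hsp22, a small heat shock protein of the mitochondrial matrix known for its rise with age in flies, was highest in the glial line. It read 6.74, 8.99 and 10.9 CPM in the control, 13.9, 13.9 and 13.0 in the glial line and 6.96, 6.32 and 6.95 in the neuronal line. The glial libraries were above all others, while control and neuronal libraries overlapped. Hsp22 was 2.02-fold higher in the glial than in the neuronal line, a log2 fold change of 1.02 ± 0.18 (edgeR adjusted p = 0.019). Against the control its log2 fold change was 0.62 ± 0.18, which did not pass with edgeR (adjusted p = 0.095) and passed with DESeq2 (adjusted p = 0.0172). The difference between the lines was lost without glial library 3 (edgeR adjusted p = 0.0583), without any 1 neuronal library (0.0671 to 0.0703) and with library totals in place of TMM (log2 fold change 0.87, edgeR adjusted p = 0.127). CG4456, which carries the synonym Hsp67Bb and overlaps Hsp22 on the chromosome, had a log2 fold change of 0.95 ± 0.20 between the lines (edgeR adjusted p = 0.033), lost without control library 2 (0.0519), any 1 glial (0.0592 to 0.0837) or any 1 neuronal library (0.0920 to 0.107) and with library totals (0.192), and reads of the shared stretch cannot be assigned to 1 of them.

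Hsp67Bc, described as the fly counterpart of HSPB8, which directs misfolded proteins to autophagy, stood out in the neuronal line. Its level was 4.66, 4.82 and 7.27 CPM in the control, 4.25, 5.08 and 4.37 in the glial line and 15.5, 9.11 and 11.9 in the neuronal line. Every neuronal library exceeded every other library, and control and glial libraries overlapped. Hsp67Bc was 2.66-fold lower in the glial than in the neuronal line (log2 fold change -1.41 ± 0.25, edgeR adjusted p = 0.017). Against the control the neuronal log2 fold change was 1.12 ± 0.24, with an edgeR adjusted p of 0.093, one of 0.0011 in DESeq2 and one of 0.0492 in edgeR with the gut level as a covariate. Between the lines the edgeR adjusted p was 0.0506 without glial library 1, 0.0758 without glial library 3, 0.065 without neuronal library 1, the highest of the group, and 0.0579 without neuronal library 3. The summed neuronal markers were highest in the 3 neuronal libraries. Of the 8 markers 6 lay above the control without overlap, beside 10.2% of all genes, while nSyb and Snap25 overlapped the control. The part of these markers in the level of Hsp67Bc was not tested.

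Hsp67Ba had 4.18, 4.47 and 4.55 CPM in the control, 1.52, 1.53 and 3.13 in the glial line and 3.93, 4.50 and 4.21 in the neuronal line. The glial libraries lay below all others, library 3 nearer to them than the other glial libraries. The log2 fold change in glial against control was -1.11 ± 0.28 and did not pass in edgeR (adjusted p = 0.064). It passed in DESeq2 (adjusted p = 0.00539), in edgeR without glial library 3 (-1.52, adjusted p = 0.00877) and in edgeR with library totals (-1.23, adjusted p = 0.0398). Against the neuronal line the log2 fold change was -1.04 ± 0.28, which did not pass in edgeR (adjusted p = 0.082). It passed in DESeq2, in edgeR with library totals and in edgeR without glial library 3. An antisense RNA, asRNA:CR43481, overlaps Hsp67Ba and had a log2 fold change of -0.99 ± 0.25 in glial against control (edgeR adjusted p = 0.062). Whether counting used strand is not given in the sources used here, so the RNA of the gene and that of its antisense partner cannot be told apart.

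The other small members, Hsp26 and Hsp27, did not pass in any comparison. Hsp26 spread from 4.79 to 13.3 CPM within the glial line and from 7.17 to 14.4 within the control, but only from 8.72 to 9.57 in the neuronal line. Hsp27, which is a nuclear protein in flies and among the lowest members, ranged from 0.120 to 1.13 CPM. All groups overlapped for both genes.

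**Figure D3:**
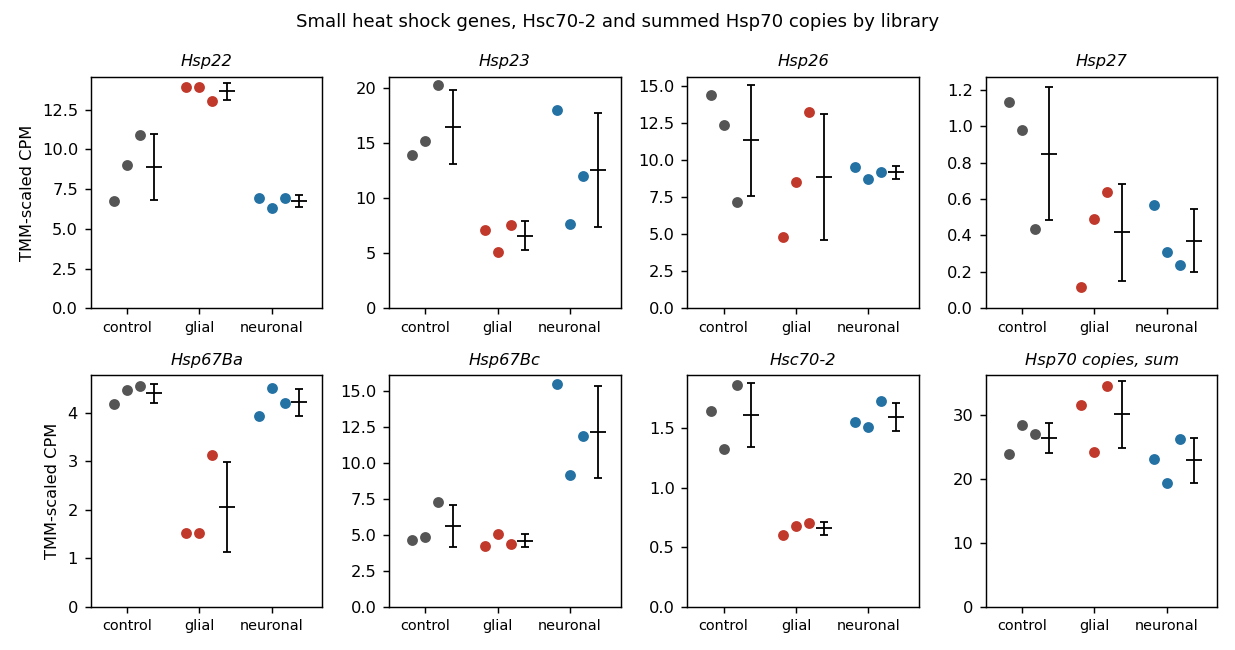
TMM-scaled CPM in each library (points) of the 6 small heat shock genes, of Hsc70-2 and of the 6 Hsp70 copies summed, with the group mean ± SD (bar, n = 3) beside the points. The glial points are apart from all others for Hsp22 (above) and for Hsp23, Hsp67Ba and Hsc70-2 (below), and the neuronal points are apart for Hsp67Bc (above).

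All 6 small members lie in 1 cluster on chromosome arm 3L, where the RefSeq annotation places Fdx1, Hsp67Bc, CG4456, Hsp22, CG4461, Hsp26, Hsp67Ba, asRNA:CR43481, Hsp23 and Hsp27 in this order. Neighbours differed in sign. In glial against control the log2 fold change was -0.29 for Hsp67Bc, 0.52 for CG4456 and 0.62 for Hsp22, then -0.51 for CG4461, -0.36 for Hsp26, -1.11 for Hsp67Ba and -1.32 for Hsp23. Fdx1, a ferredoxin gene beside the cluster, had -0.89 ± 0.28 there (edgeR adjusted p = 0.12). In neuronal against control Hsp67Bc had a positive value, 1.12, while the other small members and both CG genes between them were negative, from -1.17 for Hsp27 to -0.06 for Hsp67Ba. CG4461, a member of the small heat shock family by its synonym Hsp20, was the most abundant gene of the cluster in CPM, at a mean of 49.6, and did not pass in any comparison.

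**Figure D4:**
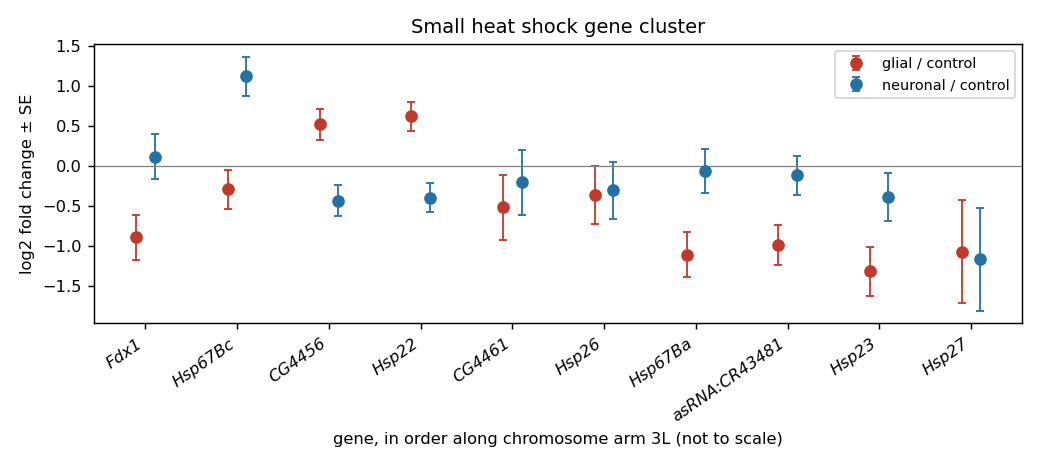
Log2 fold change ± SE against the control of genes in the small heat shock cluster, in their order along chromosome arm 3L (not to scale), red for the glial line and blue for the neuronal line. In the glial line Hsp22 (0.62) and CG4456 (0.52) lie above 0 between genes below 0, and in the neuronal line Hsp67Bc (1.12) is the only member of the cluster's small heat shock genes above 0.

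The inducible Hsp70 genes, the strongest responders to heat, did not pass in any comparison. The copies Hsp70Aa, Hsp70Ab, Hsp70Ba, Hsp70Bb, Hsp70Bbb and Hsp70Bc are nearly identical, so reads may have been split among them, and they were also tested as 1 sum. The sum read 23.9, 28.5 and 27.1 CPM in the control, 31.6, 24.3 and 34.6 in the glial line and 23.2, 19.4 and 26.4 in the neuronal line. The groups overlapped, with the highest values in glial libraries 1 and 3. The log2 fold change of the sum was 0.19 ± 0.17 in glial against control (edgeR adjusted p = 0.58), -0.21 ± 0.17 in neuronal against control (0.65) and 0.39 ± 0.17 between the lines (0.26). Single copies ranged in log2 fold change from 0.04 to 0.38 in glial against control, with a median of 0.20. With Hsp68 all 7 inducible genes were positive there, but 6 of 7 with library totals in place of TMM and without control library 1 or glial library 3, and 5 of 7 with the gut covariate and without glial library 1. Hsp70Aa and Hsp70Ab, the pair at the same locus, each gave 25.4% to 32.1% of the summed counts, and the other 4 copies 6.85% to 15.3% each. Hsp68, an inducible Hsp70 of a separate locus, had 5.90, 6.27 and 8.74 CPM in the control, 7.57, 8.28 and 8.74 in the glial line and 10.8, 8.01 and 8.73 in the neuronal line, with overlap between all groups and no value past the threshold.

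Among the 5 Hsp70 cognates 1 fell in the glial line against the control, 20.0% beside 4.28% of all genes. Hsc70-2 had 61, 45 and 77 counts in the control, 40, 25 and 22 in the glial line and 74, 59 and 65 in the neuronal line. In CPM these are 1.64, 1.33 and 1.87, then 0.601, 0.683 and 0.702, then 1.56, 1.51 and 1.73. Every glial library was below every other library, and control and neuronal libraries overlapped. Hsc70-2 fell by 1.29 ± 0.24 on the log2 scale in the glial line, 2.44-fold (edgeR adjusted p = 0.021), and was 2.42-fold lower than in the neuronal line (log2 fold change -1.27 ± 0.24, adjusted p = 0.022). Against the control the call was lost without control library 1 (edgeR adjusted p = 0.0836), control library 3 (0.0675) or any 1 glial library (0.0536 to 0.0629), in its 6 libraries alone (0.0716) and with the gut covariate (0.0567), and between the lines without control library 1 (0.0516) or any 1 glial (0.0597 to 0.0729) or neuronal library (0.0623 to 0.0845) and in the 6 libraries alone (0.0677). This gene is the lowest of the cognates, at a mean of 1.29 CPM beside 3228 for Hsc70-4. Any reads shared with an abundant paralogue could weigh on so low a level, and whether there were such reads was not tested. The summed glial markers were below the control in the same 3 libraries, as for Hsp23. Gs2 gave the largest part of that sum in every library. Of the 8 glial markers 5 lay below the control without overlap, beside 14.2% of all genes. Single markers differed, since moody was above every control library in all 3 glial libraries, and Gs2 and Gat overlapped the control. The sum of 8 germ line markers was lowest in the glial libraries, at 8.90 to 10.9 CPM. It was 11.8 to 20.8 CPM in the control and 11.0 to 15.0 in the neuronal line. The gene orb, at 7.85 to 13.8 CPM, made up most of this sum in every library. The marker vas was at 0.135 CPM or below in all libraries, while osk read 1.29, 0.296 and 0.0242 CPM in the control, at most 0.0450 in glial libraries and 0 in all neuronal ones, and dhd, swa and alphaTub67C were also highest in control library 1. The part of either marker list in the fall was not tested.

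The abundant cognates did not pass. Hsc70-4 read 3667, 3652 and 2562 CPM in the control, 2959, 3779 and 3276 in the glial line and 2621, 2989.9 and 3548 in the neuronal line, and the groups overlapped over nearly their whole range. Its log2 fold change was 0.02 ± 0.22 in glial against control and -0.11 ± 0.22 in neuronal against control, the former negative (-0.05) with library totals. Hsc70-3, the ER chaperone BiP, reached 299, 196 and 314 CPM in the glial line, beside 177 to 246 in the control and 168 to 222 in the neuronal line, so glial libraries 1 and 3 were above all others and glial library 2 was within the range of the other groups. Hsc70-5 kept to 359 to 430.2 CPM in all libraries, and Hsc70-1 ranged from 9.67 to 19.0. Hsp110, the exchange factor, lay between 65.0 and 94.8 CPM with overlap between all groups.

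Hsp83, the cytosolic Hsp90, read 706, 738 and 563 CPM in the control, 459, 448 and 655 in the glial line and 408, 482 and 398 in the neuronal line. All neuronal libraries lay below all control libraries, and glial library 3 lay within the control range. The log2 fold change was -0.64 ± 0.19 in neuronal against control, with an adjusted p of 0.20 in edgeR and of 0.0336 in DESeq2. In glial against control it was -0.36 ± 0.19 (edgeR adjusted p = 0.33).

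Of the 4 Hsp60 genes, Hsp60A carried nearly all counts. It read 739.9, 728 and 499.5 CPM in the control, 428, 491 and 513 in the glial line and 380.2, 686 and 487 in the neuronal line, and both lines overlapped the control, whose library 3 was low. The log2 fold change was -0.46 ± 0.24 in glial against control (edgeR adjusted p = 0.32) and -0.34 ± 0.24 in neuronal against control (0.59). Hsp60D stayed under 1 CPM, from 0.0820 to 0.932. Hsp60B had 14 counts in glial library 1 and 0 in the other 8, where a count of 0 allows up to 3 counts, 0.0631 to 0.0957 CPM, and Hsp60C had 1 to 7 counts in 5 libraries and 0 in 4. Neither was tested, and these limits cover counting error only.

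The CCT subunits, which assemble into 1 ring complex that folds actin and tubulin, showed small values of 1 sign in the neuronal line, but 0 of 8 passed with edgeR. In neuronal against control all 8 log2 fold changes were negative, from -0.46 (CCT7) to -0.16 (CCT6) with a median of -0.34. Of the 8, 4 (CCT1, CCT2, CCT7 and CCT8) lay below the control without overlap, beside 10.9% of all genes. CCT7 read 109, 117 and 123 CPM in the control, 111, 101 and 122 in the glial line and 83.7, 83.9 and 86.8 in the neuronal line. The neuronal libraries lay close together and below all others, and its log2 fold change against the control was -0.46 ± 0.11 (adjusted p = 0.11 in edgeR and 0.00944 in DESeq2). CCT8 had 72.9, 75.6 and 78.4 CPM in the control, 68.5, 55.4 and 61.4 in the glial line and 51.8, 55.0 and 60.5 in the neuronal line. Both lines lay below the control, and the neuronal log2 fold change was -0.44 ± 0.11 (adjusted p = 0.14 in edgeR and 0.0363 in DESeq2). CCT4, the most abundant subunit per kilobase, had 142, 129 and 131 CPM in the control, 142, 129.6 and 124 in the glial line and 98.3, 107 and 129 in the neuronal line, with neuronal library 3 inside the control range. In glial against control the 8 log2 fold changes ran from -0.29 (CCT8) to 0.05 (CCT1), with a median of -0.02. Of these 2 were positive with TMM, 5 with DESeq2 size factors and 0 with library totals, whereas all 8 were negative in neuronal against control under each scaling. In glial against neuronal all 8 were positive with TMM, but not all with library totals. There 4 of 8 lay above the neuronal line without overlap, beside 10.6% of all genes. In that comparison 0 passed with edgeR, and DESeq2 called CCT7 higher.

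**Figure D5:**
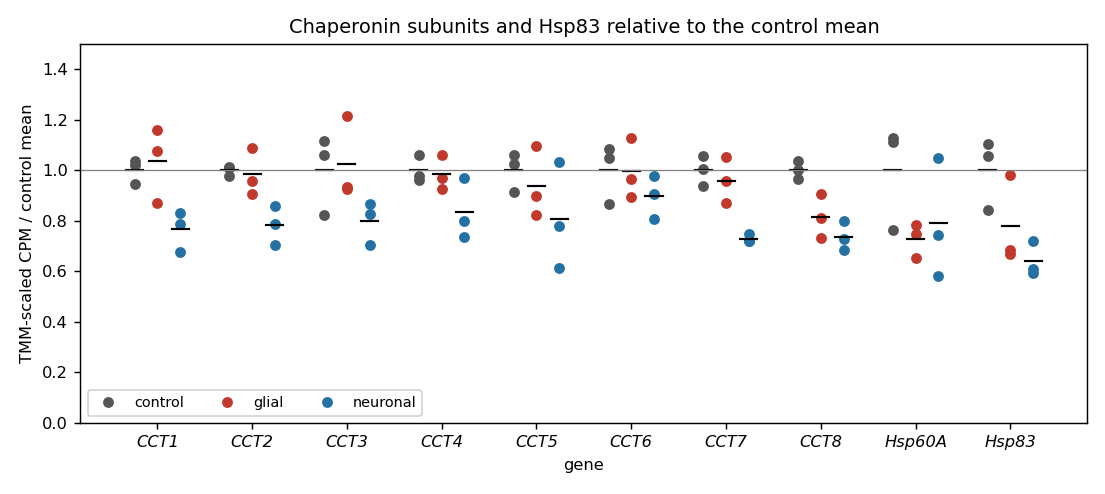
Level of the 8 CCT subunits, Hsp60A and Hsp83 in each library divided by the gene's control mean (points; black bars are group means, n = 3). The neuronal means lie below 1 for all 10 genes and the glial means lie close to 1 for CCT1 to CCT7, while CCT1, CCT2, CCT7, CCT8 and Hsp83 show all neuronal libraries below all control libraries.

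The 4 J-domain co-chaperones did not pass either. DnaJ-1, the main inducible Hsp40 of the cytosol, read 108, 121 and 119 CPM in the control, 91.4, 86.6 and 108 in the glial line and 113, 106 and 106 in the neuronal line. The glial libraries lay below the control, library 3 only just, and the log2 fold change was -0.29 ± 0.12 (edgeR adjusted p = 0.21). In glial against control all 4 log2 fold changes were negative, from -0.52 for Hsc20, which serves iron-sulphur cluster assembly, to -0.21 for DnaJ-H. Of the 4, 3 lay below the control without overlap, beside 14.2% of all genes. DnaJ-60 ranged from 13.5 to 14.8 CPM in the control, 7.70 to 12.1 in the glial line and 9.27 to 10.5 in the neuronal line, without overlap of the control with either line. On the chromosome it shares a stretch with speck (mean 446 CPM) and CG42568 (15.4 CPM). Against the control, CG42568 had log2 fold changes of -0.41 (glial) and -0.43 (neuronal), and speck 0.39 and -0.31. Whether reads of the shared stretch bear on the level of DnaJ-60 was not tested.

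Chaperone genes outside the symbol rule were read from 7 lists, and 65 of these genes were tested. In glial against control 1 rose and 1 fell, 3.08% beside 4.28% of all genes. In neuronal against control 0 passed with edgeR, beside 0.655% of all genes, and 7 of 65 had an unadjusted p under 0.05, beside 13.1% of all genes. In glial against neuronal 1 was higher, 1.54% beside 3.77% of all genes. The 2 that passed in glial against control belong to the 13 tested ER folding genes (1 rose) and to the 14 other J-domain genes (1 fell). None of the 5 other small heat shock genes, 17 Hsp90 partners, 4 Hsp70 exchange factors, 10 chaperonin partners or 2 stress regulators passed with edgeR in any comparison. They had 1, 3, 1, 3 and 1 values at an unadjusted p under 0.05, each gene giving 1 value in each of the 3 comparisons. Of all genes 20.0% had such a p in glial against control, 13.1% in neuronal against control and 18.3% in glial against neuronal. Cnx99A, a calnexin that holds glycoproteins in the ER, had 129.8, 152 and 142 CPM in the control, 194, 207 and 196 in the glial line and 166, 189 and 192 in the neuronal line. All glial values exceeded all others, and Cnx99A rose by a log2 fold change of 0.49 ± 0.11 over the control (edgeR adjusted p = 0.044), lost without any 1 control or glial library (0.0656 to 0.166) or neuronal library 2 (0.0518) or 3 (0.0652). It was also lost with library totals (0.22), with no low-count filter (0.0685), in the 6 libraries alone (0.0803) and with the gut covariate (0.0831), all in edgeR. The J-domain gene jdp had 102, 97.0 and 73.3 CPM in the control, 52.1, 57.1 and 60.0 in the glial line and 81.0, 79.3 and 74.4 in the neuronal line. Glial values of jdp lay below all others, and it fell by 0.69 ± 0.14 on the log2 scale (edgeR adjusted p = 0.026), lost without control library 1 (0.123) or 2 (0.0826), any 1 glial library (0.0687 to 0.0769) or neuronal library 3 (0.0525) and in the 6 libraries alone (0.0803). Pdi, the disulphide isomerase of the ER, had 279, 279 and 278 CPM in the control, 419, 351 and 512 in the glial line and 244, 262 and 297 in the neuronal line, and was higher in the glial than in the neuronal line by a log2 fold change of 0.68 ± 0.16 (edgeR adjusted p = 0.0499). Its glial values were above all others, and the call was lost without any 1 library except glial library 2 (0.0732 to 0.169), with library totals (0.166), with no low-count filter (0.0635) and in the 6 libraries alone (0.133).

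Of the regulators, Hsf itself varied from 16.0 to 21.7 CPM with log2 fold changes of -0.00 in glial against control (0.02 with DESeq2 size factors) and 0.11 in neuronal against control, and all groups overlapped. The heat-inducible noncoding RNA lncRNA:Hsromega read 152, 128 and 162 CPM in the control, 139.6, 95.0 and 95.0 in the glial line and 149.9, 120.3 and 158 in the neuronal line. Its log2 fold change in glial against control was -0.43 ± 0.19 (edgeR adjusted p = 0.24). CG11267, the homologue of the Hsp10 lid of the mitochondrial chaperonin, had 44.5, 48.5 and 46.9 CPM in the neuronal line, below all values of the control (64.2 to 93.1) and of the glial line (61.8 to 101). The log2 fold change in neuronal against control was -0.78 ± 0.19 (adjusted p = 0.12 in edgeR and 0.0106 in DESeq2).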

How the data were processed

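The deposited table holds raw counts per RefSeq transcript, 31838 rows in 9 columns, with no scaling by the authors. STAR and DESeq2 are named in the submitters' processing notes, with no role or version. The sources used here give no counting program, genome build or use of strand, so no coordinates are printed. Rows were summed per gene symbol through the RefSeq annotation of Release 6 plus ISO1 MT: 31637 rows matched and 201, with 0.402% to 0.811% of the counts, were kept as entries of their own. Isoforms of a member often held nearly equal counts, so single transcripts were not tested. Of the 36 members, 13 overlap another annotated gene. Exon lengths came from the Ensembl annotation BDGP6.54.115.

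Differences were tested by the quasi-likelihood method of edgeR 4.0.16 (R 4.3.3) after TMM scaling. The fit took all 9 libraries, had no term but group, and covered the 11455 genes that filterByExpr kept (minimum count 10, total 15). The standard error is the size of the log2 fold change divided by the square root of F. DESeq2 1.42.0 was an alternative. The pipeline was tested on simulated data.

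The members, the gene lists and the rules were chosen with earlier results of these data known. Values in every library are given for members past the threshold in any comparison, for the highest member by mean CPM of each class and for the summed Hsp70 copies. Other chaperone genes are named where they passed, with Hsf and lncRNA:Hsromega always. Other genes, among them Hsp67Ba, Hsp83, CCT7, CCT8, CG11267 and the neighbours in the small heat shock cluster, were named after their values were seen. Alternatives were other scaling, DESeq2, no count filter, 6 libraries, a replicate block, a gut covariate, the Hsp70 sum and each library left out.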

Additional observations from a re-analysis of the deposited data

Results flagged for a closer look

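For 3 members the glial and neuronal lines differed by a direct test between them (edgeR quasi-likelihood test, Benjamini-Hochberg adjusted over all genes). The log2 fold change, glial over neuronal, was -1.27 for Hsc70-2, 1.02 for Hsp22 and -1.41 for Hsp67Bc. All 3 glial libraries lay on 1 side of all 3 neuronal libraries for each of these genes. For Hsc70-2 the control lay with the neuronal line, for Hsp67Bc with the glial line, and for Hsp22 the control overlapped the neuronal line and lay below the glial line. Groups of 3 libraries are too small for a search for single outlying libraries.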

How the results depend on the processing

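In glial against control 2 members were called; DESeq2 called 4, the 6 libraries of the comparison alone 1, the replicate block 0, the gut covariate 0, and leaving out 1 library gave 0 to 2. In neuronal against control 0 were called with edgeR, 4 with DESeq2 and 1 with the gut covariate. In glial against neuronal 3 were called, 6 with DESeq2, 0 with the replicate block and 0 to 3 when 1 library was left out. The cause of these differences was not tested. The log2 fold changes of Hsp23, Hsc70-2, Hsp22 and Hsp67Bc in the comparisons that called them had 1 sign under every alternative run, though the calls were often lost.

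Correlations between the deviations of same-numbered libraries ran from -0.57 to 0.37 over 9 pairs, and those of other pairs from -0.61 to 0.38. Deviations were taken from the mean of each small group, and gut RNA varied widely between libraries. The check therefore cannot decide whether the numbers mark a pairing. With the replicate block the calls over all genes were 272, 30 and 235, beside 490, 75 and 432 without it, in the 3 comparisons in the same order, and none of the calls of members or of Cnx99A, jdp, Pdi and CG4456 passed (edgeR adjusted p 0.0519 to 0.0914). DESeq2 gave 1113, 470 and 1014 over all genes and library totals 281, 44 and 244. With library totals the median over all genes moved to -0.10, 0.06 and -0.15, and the share higher went from 263 of 490 to 126 of 281 in glial against control, and the split of higher to lower from 32 and 43 to 27 and 17 in neuronal against control and from 223 and 209 to 95 and 149 between the lines. The 6 libraries alone gave 274 in glial against control and 227 between the lines, and leaving out 1 library gave 181 to 444 and 16 to 62 in the first and second comparison and as few as 157 between the lines.

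Values near 0 changed sign. CCT4 in glial against control was 0.0028 with DESeq2 size factors, 0.0030 with DESeq2, 0.0055 in the 6 libraries and -0.055 to 0.040 without 1 library. Hsc70-4 was -0.051 with library totals, -0.0021 with the gut covariate and -0.11 to 0.12 without 1 library, and Hsp110 -0.0063 with library totals and -0.072 to 0.20 without 1 library. CCT7 ran from -0.12 to 0.015. Hsf was 0.022 with DESeq2 size factors, 0.024 with DESeq2, 0.0235 in the 6 libraries, 0.046 with the gut covariate and -0.064 to 0.11 without 1 library. In neuronal against control Hsc70-2 was 0.043 with library totals, 0.084 with the gut covariate and -0.13 to 0.12 without 1 library, and Hsc70-4 -0.25 to 0.00090. Between the lines Hsc70-4 was -0.019 with library totals, Hsp110 ran from -0.19 to 0.062 and Hsp60A from -0.28 to 0.15. Of 1002 values of the other members 65 turned sign, none of a main size above 0.24. With 22 to 77 counts for Hsc70-2, depth limits its precision.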
